A study of Homo sapiens with 12 samples.

Results

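The genes of oxidative phosphorylation were followed in THP-1 and U-937 cells, which are human acute myeloid leukemia lines, after 24 h with honokiol or with the solvent DMSO. Honokiol is a lignan from Magnolia bark. The genes were those of the KEGG pathway 00190 in the deposited table, without the 20 genes whose symbol starts with ATP6V, which encode the vacuolar proton pump. This left 110 of 36866 genes. Of these, 13 lie on the mitochondrial chromosome and 97 in the nucleus. By their symbols, 89 nuclear genes were assigned to complexes I to V of the respiratory chain, with 38 in complex I, 4 in complex II, 10 in complex III, 22 in complex IV and 15 in complex V. The mitochondrial genes give 7 subunits to complex I, 1 to complex III, 3 to complex IV and 2 to complex V. The other 8 nuclear genes are proton and potassium pump subunits (ATP4A, ATP4B and ATP12A), phosphatases (PPA1, PPA2 and LHPP) and proteins of the vacuolar pump (TCIRG1 and ATP6AP1). In the fit of all 12 libraries 103 of the 110 genes passed the filter on low values, and ATP4A, ATP4B, ATP12A, COX4I2, COX6A2, COX6B2 and COX7A1 did not. COX8C also missed it in THP-1 alone. NDUFA4 and NDUFA4L2 were counted with complex IV, and COX10, COX11, COX15 and COX17, which assemble that complex, were counted with it too. NDUFC2-KCTD14, which shares sequence with NDUFC2 and KCTD14, was counted in complex I beside NDUFC2. UQCRHL, which shares sequence with UQCRH, was counted in complex III beside it.

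Complex I takes electrons from NADH and complex II takes them from succinate. Both hand them to ubiquinone, complex III passes them to cytochrome c, and complex IV gives them to oxygen. The proton gradient built on the way drives complex V, the ATP synthase. The subunits come from both genomes, except that all of complex II is nuclear. The mitochondrial genes are copied as long transcripts from both strands and then cut into single mRNAs, so the 13 genes are not independent of each other.

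There were 4 groups of 3 libraries, THP-1 with DMSO, THP-1 with honokiol, U-937 with DMSO and U-937 with honokiol. The DMSO groups received 0.1% DMSO. The labels list 20 and 35 μM honokiol without naming the line for either dose, so in a comparison of the lines under honokiol the dose and the line cannot be told apart. Each line is a single cultured line with a complex karyotype in its label, and the study's methods say in general that experiments were repeated. The sources do not say whether the 3 libraries of a group came from separate cultures, so the p-values measure only the spread between these libraries. Poly(A) mRNA was sequenced, and the level of a gene is given as deposited in FPKM, which scales its fragments by transcript length and by library size. In bulk RNA, fewer cells of a type and less RNA per cell cannot be told apart. Values of single libraries are given in the order of replicates 1 to 3. Of the myeloid markers, SPI1 and PTPRC were present in both lines (FPKM of at least 53.3 and 15.5), while MPO, the myeloperoxidase gene, was at 20.2 to 35.3 in THP-1 and at 0.06 to 0.17 in U-937. The T cell gene CD3E was at 0.04 or less in every library.

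DMSO replicate 1 of each line stood apart from the other libraries. The deposited counts summed to between 57406966 and 75065752 per library. A fragment was mostly worth 4 counts. In those libraries the 13 mitochondrial mRNAs held 12.2% (THP-1) and 11.0% (U-937) of the counts, and between 4.73% and 6.56% in the other 10. For each count of a nuclear member of complexes I to V there were 18.5 and 17.9 mitochondrial counts in these libraries and 5.59 to 7.02 elsewhere. All 13 mitochondrial genes were at their highest DMSO level in replicate 1 in both lines. Of the nuclear members tested, 67 of 84 in THP-1 and 66 of 85 in U-937 were at their lowest DMSO level there (79.8% and 77.6%), while this was so for 50.1% and 46.1% of all nuclear genes tested. In THP-1 this library also differed by gene length, since its median log2 deviation from replicates 2 and 3 was -0.20 for nuclear genes with under 1 kb of exon and 0.19 for those over 8 kb. The nuclear members had a median of -0.41. For U-937 the same classes were at -0.03 and 0.02, and the nuclear members at -0.34. The part of these differences in the results was not tested, and the main results that these libraries move are given with and without them.

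Per length of transcript, the mitochondrial mRNAs were far above the nuclear ones in all 12 libraries. Their FPKM values summed to between 48073 and 130644 per library, and those of the 89 nuclear members to between 2384 and 3834. MT-ATP8, a small subunit of the ATP synthase, had the highest mean level of the 13 in each group, 16814 ± 9866 (SD, n = 3) in THP-1 and 16274 ± 3092 in U-937 with DMSO, and 12643 ± 1564 and 11206 ± 1057 with honokiol. MT-CO1, the catalytic subunit of complex IV, had the second highest mean in both honokiol groups, at 10676 ± 802 and 8013 ± 590. MT-ATP6, the proton channel subunit of the ATP synthase, had the lowest mean in each group, between 738 ± 89.5 and 1325 ± 462. The plot of the mitochondrial genes by library shows these levels, with replicate 1 the highest DMSO library for each gene.

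**Figure D1:**
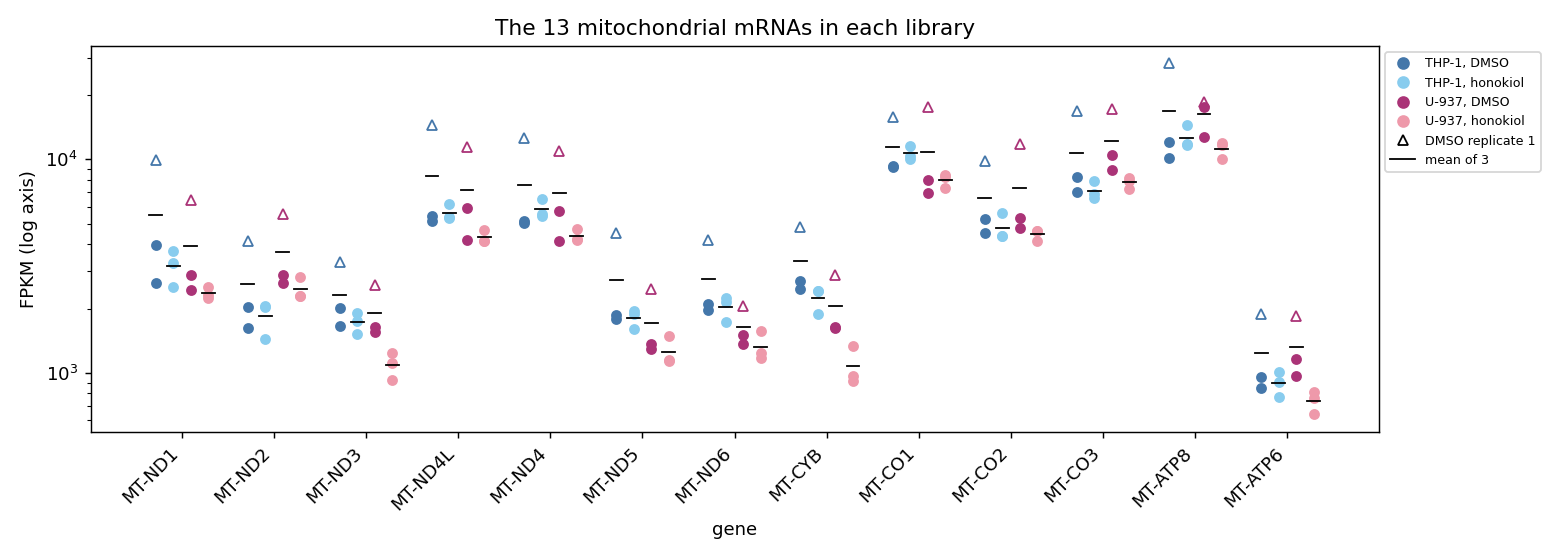
FPKM (log axis) of the 13 mitochondrial mRNAs, ordered by complex, in each of the 12 libraries, with DMSO replicate 1 as open triangles and the mean of 3 libraries as a bar. MT-ATP8 has the highest mean and MT-ATP6 the lowest in each group, and both open triangles lie above the other DMSO libraries of their line for all 13 genes.

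MT-ATP8 and MT-ATP6 share bases, and so do MT-ND4L and MT-ND4, so the counts of these pairs cannot be fully told apart. The sequences of the shorter partners are shown for this reason, from the GENCODE 29 transcripts on GRCh38, with the bases shared with the next gene in capitals. MT-ATP8 spans chrMT:8366-8572 on the plus strand (207 bases, 46 of them shared with MT-ATP6), and MT-ND4L spans chrMT:10470-10766 on the plus strand (297 bases, 7 shared with MT-ND4).
MT-ATP8: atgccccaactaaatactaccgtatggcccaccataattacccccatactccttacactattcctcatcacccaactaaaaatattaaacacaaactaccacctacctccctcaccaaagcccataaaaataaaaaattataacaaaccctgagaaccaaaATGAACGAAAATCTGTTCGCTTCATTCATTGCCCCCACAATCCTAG
MT-ND4L: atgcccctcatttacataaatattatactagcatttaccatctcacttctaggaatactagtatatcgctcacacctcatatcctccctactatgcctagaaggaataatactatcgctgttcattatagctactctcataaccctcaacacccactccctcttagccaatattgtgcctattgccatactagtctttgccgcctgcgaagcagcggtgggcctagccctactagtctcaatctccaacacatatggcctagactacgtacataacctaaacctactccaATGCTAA
MT-ATP8 and MT-ATP6 are known to be carried on 1 mRNA. Their mean levels over the 12 libraries were 14234 and 1047 FPKM, and MT-ATP8 is the shortest of the 13 genes. The part of the length in this difference was not tested. MT-ND4L and MT-ND4 were at 6370 and 6179. MT-ATP6 and MT-CO3 also share 1 base. Annotated transcripts of nuclear copies of mitochondrial DNA share stretches of 100 bases with 6 of the 13 genes. Of all stretches of 100 bases in MT-CO1, 27.9% are also found in the transcript of a nuclear pseudogene, and the shares are 26.1% for MT-ND2, 11.9% for MT-ATP6, 11.0% for MT-ND1, 4.38% for MT-CO3 and 2.39% for MT-CO2. The other 7 genes shared no such stretch with another annotated transcript. Nuclear copies without an annotated transcript, on the other strand or with less alike sequence were not searched. The pseudogene MTATP6P1, on chromosome 1, took between 0.0422% and 0.181% of the counts, and its 2 highest shares, 0.181% and 0.165%, were those of the DMSO replicates 1. In U-937 with honokiol MT-ATP6 gave a mean of 1.22% of the counts of the 13 genes. Those genes held 4.85% of all counts there, and MTATP6P1 held 0.0506%. In THP-1 with DMSO these means were 1.26%, 7.84% and 0.101%. Reads that fit both copies could have been split between them. The part of such a split in the low level of MT-ATP6, and in its distance from MT-ATP8, was not tested.

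The first question was whether honokiol changed the mitochondrial genes. No member was called in THP-1 cells. A gene was called where the quasi-likelihood test of edgeR gave a p under 0.05 after Benjamini-Hochberg adjustment over all genes tested. This held for 0.0411% of all 14600 genes tested in THP-1 and for 0 of the 102 members tested. DESeq2 called 1 member, NDUFA7, and 3.6% of the genes it tested, and 2 members had an unadjusted p under 0.05 in edgeR, against 13.1% of all genes (6.22% with lower values). The fitted log2 fold changes of all 13 mitochondrial genes were below 0 (49.9% of all genes were above 0), with a median of -0.55 and a range from -0.90 for MT-ND1 to -0.18 for MT-CO1, and their smallest adjusted p was 0.409. MT-CYB, the mitochondrial subunit of complex III, was at 4827, 2697 and 2459 FPKM with DMSO and at 2415, 2411 and 1894 with honokiol in THP-1 (log2 fold change -0.65, standard error 0.31, adjusted p = 0.409, and -0.21 without DMSO replicate 1). Of the mitochondrial genes of THP-1 it alone had groups that did not overlap (7.62% of all genes in that direction), and the lowest DMSO library lay just above the highest honokiol library. MT-ND5, a core subunit of complex I, was at 4528, 1866 and 1791 with DMSO and at 1883, 1941 and 1602 with honokiol in THP-1 (log2 fold change -0.68, standard error 0.39, adjusted p = 0.479, and -0.02 without DMSO replicate 1). Without DMSO replicate 1 the median of the 13 genes was -0.02, with 5 above 0 and 8 below, and edgeR called 0 members and 0.00694% of all genes. The log2 ratio of the summed mitochondrial FPKM was -0.44 with all libraries and 0.07 without DMSO replicate 1.

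In U-937 cells no member was called by edgeR either, where 0.0947% of all 13726 genes tested were called and 103 members were tested. The 13 mitochondrial genes were all below 0 (52.0% of all genes were above 0), with a median log2 fold change of -0.77. An unadjusted p under 0.05 was reached by 10 of the 103 members (16.7% of all genes), of them 7 of the 13 mitochondrial genes, with lower values with honokiol (8.44% of all genes). DESeq2 called 4 of them, MT-CYB, MT-ND3, MT-ATP6 and MT-ATP8, with adjusted p-values of 0.0120, 0.0144, 0.0173 and 0.0401, and it called 6.12% of the genes it tested. MT-CYB was at 2877, 1629 and 1637 FPKM with DMSO and at 968, 917 and 1337 with honokiol (log2 fold change -1.03, standard error 0.29, adjusted p = 0.162 in edgeR). MT-ND3, a complex I subunit, was at 2571, 1545 and 1631 with DMSO and at 1113, 929 and 1237 with honokiol (log2 fold change -0.91, standard error 0.25, adjusted p = 0.154). Each honokiol library was below each DMSO library for both genes. MT-ATP6 was at 1847, 966 and 1163 with DMSO and at 759, 640 and 816 with honokiol (log2 fold change -0.95, standard error 0.27, adjusted p = 0.163). The groups of MT-ATP8, MT-CO2 and MT-CO3 did not overlap either, so that this held for 6 of the 13, against 7.5% of all genes in that direction.

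Leaving out DMSO replicate 1 of U-937 brought the median of the mitochondrial genes to -0.24, with 12 of 13 still below 0. MT-CYB was then at -0.67, MT-ND3 at -0.60, MT-ATP6 at -0.59, MT-ATP8 at -0.50 and MT-CO3 at -0.37, each with an unadjusted p under 0.05 and none called (0.0446% of all genes were called). MT-CO1 moved from -0.55 to 0.03. The log2 ratio of the summed mitochondrial FPKM was -0.61 with all libraries and -0.24 without this one. The plot of the fold changes with and without these libraries shows the move toward 0 in both lines.

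**Figure D2:**
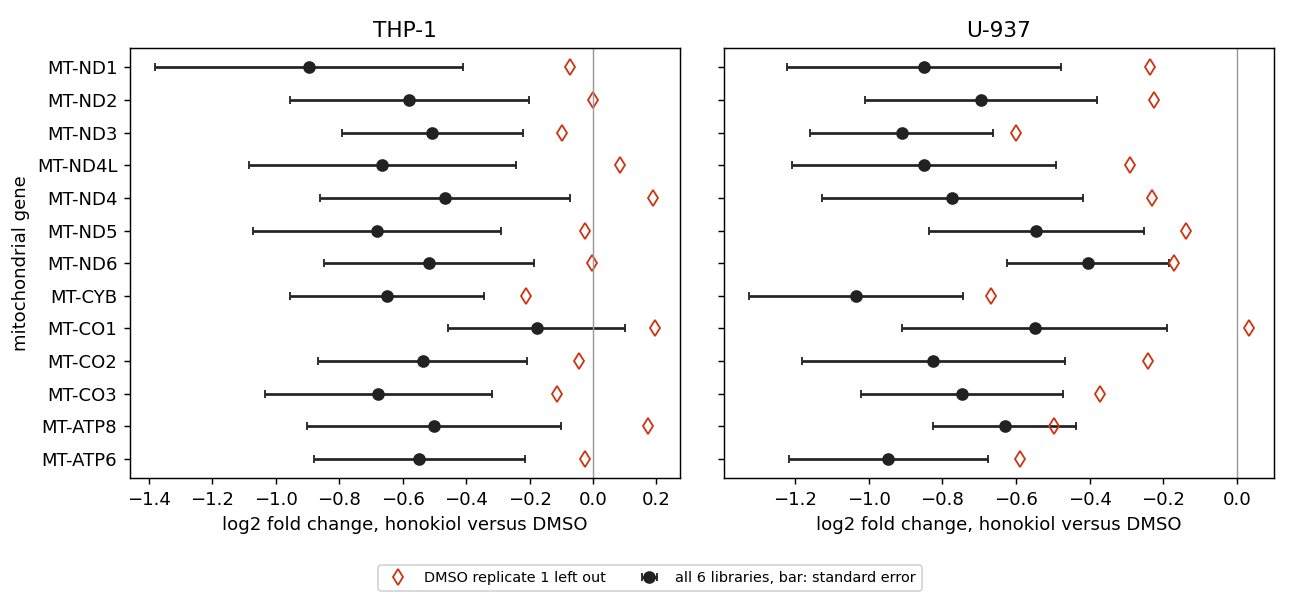
Log2 fold change of the 13 mitochondrial genes with honokiol against DMSO in THP-1 (left) and U-937 (right), as fitted on all 6 libraries (black, with the standard error) and without DMSO replicate 1 (open diamonds). The medians are -0.55 and -0.02 for THP-1, and -0.77 and -0.24 for U-937.

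The share of each gene within the mitochondrial mRNA pool was also read from the counts. MT-CO1 gave 27.6% ± 3.78 (SD, n = 3) of the counts of the 13 genes in THP-1 with DMSO and 32.5% ± 0.915 with honokiol. Its share was 26.5% ± 2.05 in U-937 with DMSO and 30.1% ± 2.20 with honokiol. The THP-1 groups did not overlap and the U-937 groups did. The shares of MT-CO3 in THP-1 and of MT-ATP6 in both lines did not overlap either, with lower shares with honokiol. Those of the other mitochondrial genes overlapped in both lines. All these shares include DMSO replicate 1. MT-CYB gave 5.84% ± 0.476 and 5.04% ± 0.428 in THP-1, and 3.90% ± 0.495 and 2.97% ± 0.509 in U-937. These shares were not tested.

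No nuclear member of complexes I to V was called with honokiol by edgeR in either line. In THP-1 cells the 84 tested had a median log2 fold change of 0.04 (all genes -0.00), with 50 above 0 and 34 below (49.9% of all genes were above 0), and 2 had an unadjusted p under 0.05. NDUFA7, an accessory subunit of complex I, was at 7.36, 8.91 and 10.3 FPKM with DMSO and at 15.2, 15.5 and 14.4 with honokiol in THP-1 (log2 fold change 0.71, standard error 0.16, adjusted p = 0.168 in edgeR and 0.00450 in DESeq2). The 2 groups did not overlap. NDUFA7 shares 23.8% of its stretches of 100 bases with the transcript of AC010323.1, so its count could have been split. ATP5MF, a subunit of the membrane part of the ATP synthase, was at 42.1, 40.4 and 46.2 with DMSO and at 31.9, 38.4 and 32.8 with honokiol in THP-1 (log2 fold change -0.38, standard error 0.13, adjusted p = 0.312). In U-937 it was at 37.1, 39.0 and 45.8 with DMSO and at 35.7, 31.9 and 36.0 with honokiol (log2 fold change -0.32, standard error 0.13, adjusted p = 0.269). Its groups did not overlap in either line, which in all was so for 3 nuclear members in THP-1 and 8 in U-937, against 20.6% and 24.2% of all genes.

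In U-937 cells the 85 nuclear members tested had a median of -0.01 (all genes 0.02), with 41 above 0 and 44 below. Besides ATP5MF, NDUFA4L2 had an unadjusted p under 0.05. NDUFA4L2, a paralog of NDUFA4 known to be induced in hypoxia, was at 1.48, 0.88 and 1.01 with DMSO and at 1.93, 2.07 and 2.06 with honokiol (log2 fold change 0.73, standard error 0.28, adjusted p = 0.251, and 1.02, adjusted p = 0.133 without DMSO replicate 1). TCIRG1, a subunit of the vacuolar pump outside complexes I to V, was at 10.5, 10.3 and 10.9 with DMSO and at 14.0, 14.8 and 15.0 with honokiol in U-937 (log2 fold change 0.38, standard error 0.12, adjusted p = 0.194). Neither was called.

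Summed over each complex, the nuclear levels were lowest in DMSO replicate 1 among the DMSO libraries of a line. Complex I summed to 756, 1150 and 1204 FPKM in THP-1 with DMSO and to 1033, 1075 and 1022 with honokiol. With all libraries the honokiol values lay within the DMSO range, and without replicate 1 all lay below it. In U-937 complex I summed to 821, 1117 and 1249 with DMSO and to 1134, 1098 and 1104 with honokiol. Complex II, which has no mitochondrial subunit, summed to 92.9 ± 7.89 in THP-1 with DMSO and 102 ± 3.93 with honokiol. In U-937 it summed to 85.7 ± 13.0 with DMSO and 90.5 ± 3.48 with honokiol. Without DMSO replicate 1 the DMSO means of complex II were 96.0 in THP-1 and 93.1 in U-937. Its 4 genes SDHA, SDHB, SDHC and SDHD had log2 fold changes between -0.02 and 0.12 for THP-1, and between -0.23 and 0.34 for U-937. Without DMSO replicate 1 the ranges were -0.06 to 0.17 and -0.27 to 0.19. The plot of the sums by complex shows the same order of complexes in the 4 groups, except that complex V lay above complex IV in THP-1 and below it in U-937.

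**Figure D3:**
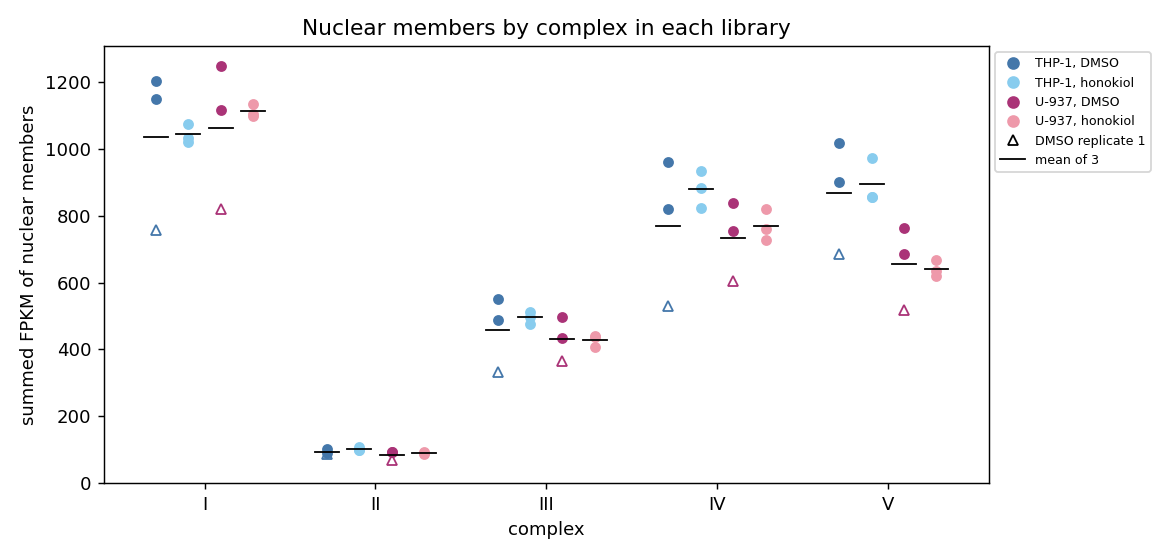
Summed FPKM of the nuclear members of each complex in each library, with DMSO replicate 1 as open triangles and the mean of 3 libraries as a bar. The open triangles are the lowest DMSO values of all 5 complexes in both lines, at 756 and 821 for complex I.

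Without DMSO replicate 1 more nuclear members lay below 0 in both lines. The median log2 fold change went from 0.04 to -0.09 in THP-1, with 58 of 84 below 0, and from -0.01 to -0.11 in U-937, with 61 of 85 below 0. Unadjusted p-values under 0.05 were reached by 8 of 84 in THP-1 (13.2% of all genes) and 13 of 85 in U-937 (16.4% of all genes), and edgeR called 0 in each. The log2 ratio of the summed nuclear FPKM was 0.08 with all libraries and -0.09 without replicate 1 for THP-1. For U-937 it was 0.03 and -0.10.

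The difference of the honokiol effect between the lines was fitted on all 12 libraries. No member was called, where 0.111% of 16283 genes were called, and DESeq2 called 0 members and 1.62% of its genes. Without DMSO replicate 1 of both lines edgeR called 0 members and 0.0437% of all genes. Of the 103 members tested 3 had an unadjusted p under 0.05, against 9.37% of all genes. NDUFA7 had a difference of -0.62 (standard error 0.28, adjusted p = 0.518), since it was at 0.71 for THP-1 and 0.10 for U-937. NDUFA5, a complex I subunit, had a difference of 0.67 (standard error 0.30, adjusted p = 0.524, and 0.42 without both DMSO replicates 1), with -0.38 for THP-1 and 0.30 for U-937 on the log2 scale. The third was COX8C, whose difference rests on counts of 0 to 5 in THP-1 and is given no size. For the 13 mitochondrial genes the difference ranged from -0.41 to 0.13, with a smallest adjusted p of 0.826. Without both DMSO replicates 1 all 13 were below 0, with a median of -0.26 and a smallest adjusted p of 0.401.

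The lines themselves differed in many members. With DMSO, 44 of the 103 members tested were called between U-937 and THP-1, against 52.9% of all genes. With honokiol 41 were called, against 51.4% of all genes. The members' shares were below those of all genes. With the limit of an absolute log2 fold change over 1 as well, 12 and 13 members remained, against 34.0% and 32.2% of all genes. Among the 85 nuclear members of complexes I to V, 14 were higher and 26 lower in U-937 with DMSO (24.4% and 28.5% of all genes), and 10 were higher and 28 lower with honokiol (24.1% and 27.3%). Their median log2 fold change was -0.12 with DMSO and -0.19 with honokiol, against -0.05 and -0.02 for all genes. By complex, 6 were higher and 12 lower in complex I with DMSO, 0 and 1 in complex II, 3 and 3 in complex III, 4 and 5 in complex IV, and 1 and 5 in complex V. The DMSO and honokiol comparisons contrast different libraries, but both came from 1 fit of all 12, so their calls are not independent. Of the 84 nuclear members without COX8C, 31 were called in both, 9 higher in both and 22 lower in both, against 42.7%, 19.3% and 23.4% of all genes. The plot of the 2 comparisons shows them along one line.

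**Figure D4:**
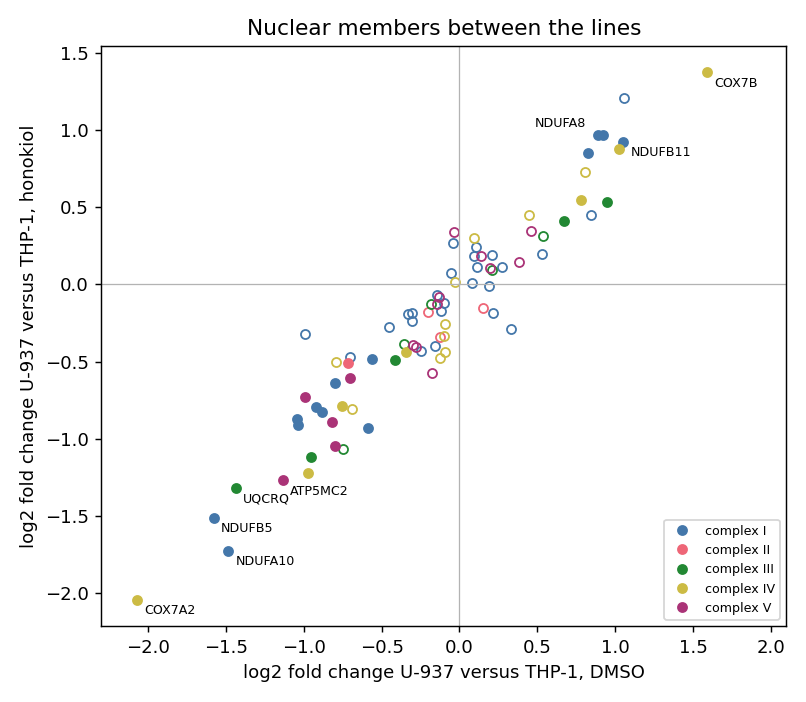
Log2 fold change of 84 nuclear members of complexes I to V in U-937 against THP-1, with DMSO (x axis) and with honokiol (y axis), coloured by complex and filled where called in both. COX8C is left out for its near-zero counts in THP-1. COX7A2 lies lowest, at -2.07 and -2.04, and COX7B highest, at 1.59 and 1.37.

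COX7A2, the complex IV subunit found in most tissues (chromosome 6, 75237675 to 75250323 of GRCh38, minus strand), was at 36.1, 67.7 and 76.3 FPKM in THP-1 and at 11.0, 16.3 and 16.6 in U-937 with DMSO. Each U-937 library was below each THP-1 library (log2 fold change -2.07, standard error 0.22, adjusted p = 1.1e-05 in edgeR, and -2.04, adjusted p = 1.37e-05 with honokiol). NDUFB5, an accessory subunit of complex I, was at 8.69, 8.09 and 11.2 in THP-1 and at 2.64, 3.21 and 3.81 in U-937 with DMSO (log2 fold change -1.58, standard error 0.16, adjusted p = 8.19e-06). NDUFA10, another one, was at 9.80, 9.01 and 9.32 in THP-1 and at 3.42, 3.04 and 3.96 in U-937 with DMSO (log2 fold change -1.48, standard error 0.13, adjusted p = 2.44e-06). The lines did not overlap for any of these genes, also with honokiol (-1.51 for NDUFB5 and -1.73 for NDUFA10). UQCRQ, a small subunit of complex III, was at 12.4, 24.1 and 27.8 in THP-1 and at 4.35, 9.41 and 10.7 in U-937 with DMSO (log2 fold change -1.44, adjusted p = 0.00137). DMSO replicate 1 was the lowest of both groups, and without it the value was -1.40.

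Among the most expressed nuclear members, ATP5F1B, the catalytic subunit of the ATP synthase, was the highest over the 12 libraries, with a mean of 320. It was at 290, 416 and 492 in THP-1 and at 185, 233 and 292 in U-937 with DMSO (log2 fold change -0.80, standard error 0.18, adjusted p = 0.00228). With honokiol it was at 385, 480 and 412 in THP-1 and at 224, 227 and 208 in U-937 (log2 fold change -1.05, adjusted p = 0.000373). With DMSO the ranges met only in replicate 1 of THP-1 and replicate 3 of U-937. UQCRH, the hinge protein of complex III, was lower in U-937, with a log2 fold change of -0.95 with DMSO (adjusted p = 0.00267) and of -1.12 with honokiol (adjusted p = 0.000991). It shares 4.95% of its stretches of 100 bases with UQCRHL, and COX8A shares 18.9% with AP000721.1. COX8A, NDUFS5 and SDHB, which lead complexes IV, I and II, were called in neither comparison of the lines, and their DMSO means in THP-1 and U-937 were 227 and 219, 186 and 222, and 31.2 and 35.9. Of complex II only SDHC, which anchors it in the membrane, was called, at -0.72 with DMSO (adjusted p = 0.00223) and -0.51 with honokiol (adjusted p = 0.0172).

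Of the members higher in U-937, COX7B, a complex IV subunit on the X chromosome, was at 9.28, 9.04 and 3.65 in THP-1 and at 20.5, 19.2 and 29.9 in U-937 with DMSO (log2 fold change 1.59, standard error 0.30, adjusted p = 0.000859). With honokiol it was at 8.39, 7.15 and 7.27 in THP-1 and at 21.7, 19.7 and 21.6 in U-937 (log2 fold change 1.37, adjusted p = 0.00245). The lines did not overlap in either treatment. NDUFB11, a complex I subunit also on the X chromosome, was at 26.1, 45.9 and 51.7 in THP-1 and at 75.8, 86.7 and 101 in U-937 with DMSO (log2 fold change 1.05, standard error 0.18, adjusted p = 0.000388). COX11, which helps to insert copper into complex IV, was higher by 1.03 with DMSO (adjusted p = 0.0100) and by 0.87 with honokiol (adjusted p = 0.0239), and without DMSO replicate 1 of both lines it was not called with DMSO (0.91, adjusted p = 0.0657). NDUFA8 and NDUFB9, of complex I, were higher by 0.97 and 0.97 with honokiol (adjusted p = 0.00551 and 0.0135). LHPP, a phosphatase outside complexes I to V, was at 0.08, 0.62 and 0.50 in THP-1 and at 2.73, 2.13 and 1.91 in U-937 with DMSO (log2 fold change 2.48, standard error 0.54, adjusted p = 0.00204). Without DMSO replicate 1 of both lines the value was 1.80.

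**Figure D5:**
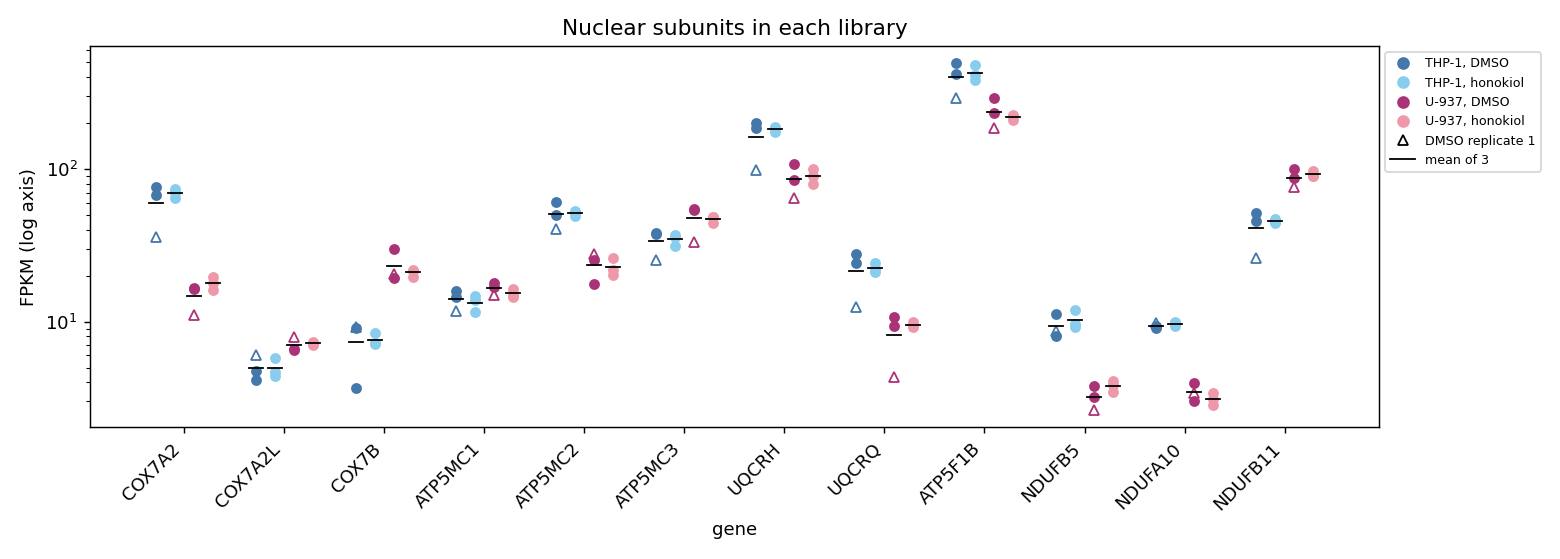
FPKM (log axis) of 12 nuclear subunits in each library, with DMSO replicate 1 as open triangles and the mean of 3 libraries as a bar. COX7A2, UQCRQ, NDUFB5, NDUFA10 and ATP5MC2 lie lower in both U-937 groups, and COX7B and NDUFB11 higher, while ATP5MC1 overlaps between the lines.

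Some subunits have paralogs that are known to take each other's place. In complex IV, COX4I1, COX6A1 and COX6B1 gave at least 98.9% of the summed FPKM of their families in each group, and the tissue-restricted forms COX4I2, COX6A2, COX6B2 and COX7A1 were at 0.55 FPKM or less in each library and were not tested. COX7A2 gave 91.3% of the COX7A family in THP-1 and 66.8% in U-937 with DMSO, where COX7A2L, which links respiratory complexes to each other, gave 8.7% and 33.0%. The level of COX7A2L was 4.97 ± 0.965 and 7.05 ± 0.793 (SD, n = 3), and it was not called (log2 fold change 0.45, adjusted p = 0.0630), though it was called without both DMSO replicates 1 (0.54, adjusted p = 0.0158). COX8C, a form known from testis (chromosome 14, 93347182 to 93348356), had 0 or 1 counts per library in THP-1 with DMSO and 0 to 5 with honokiol. In U-937 it had 362 to 675 counts with DMSO and 458 to 485 with honokiol, at 13.3 ± 2.89 and 12.4 ± 0.170 FPKM. It passed the filter on low values only through U-937 and was called in both treatments. These calls add no support beyond the counts, and no fold is given against counts so near 0. COX8C is among the members counted as called between the lines. Beside COX8A it made up 5.7% and 4.9% of the COX8 family in U-937. NDUFA4 was lower in U-937 with DMSO (log2 fold change -0.79, adjusted p = 0.0129) and was not called with honokiol (-0.50, adjusted p = 0.0923, but 0.00339 in the fit without the DMSO replicates 1).

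The 3 genes ATP5MC1, ATP5MC2 and ATP5MC3 encode the same mature c subunit of the ATP synthase rotor. ATP5MC2 was at 40.4, 50.2 and 60.4 in THP-1 and at 27.5, 17.7 and 25.1 in U-937 with DMSO (log2 fold change -1.13, standard error 0.18, adjusted p = 0.000245, and -1.27, adjusted p = 0.000116 with honokiol). ATP5MC3 was at 25.4, 37.3 and 38.0 in THP-1 and at 33.3, 54.2 and 55.0 in U-937 with DMSO (log2 fold change 0.46, standard error 0.18, adjusted p = 0.0461), and it was not called with honokiol (0.35, adjusted p = 0.121, but 0.0137 in the fit without the DMSO replicates 1). ATP5MC1 was not called in either (0.20 and 0.11). Of their summed FPKM with DMSO, ATP5MC2 gave 51.4% in THP-1 and 27.3% in U-937, while ATP5MC3 gave 34.2% and 53.7%.

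Of the mitochondrial genes, MT-ND6, the complex I subunit coded on the other strand, was the only one called between the lines with DMSO. It was at 4201, 1969 and 2091 in THP-1 and at 2058, 1359 and 1499 in U-937 (log2 fold change -0.81, standard error 0.31, adjusted p = 0.0426). The groups overlapped through DMSO replicate 1 of U-937, and without this replicate of both lines the value was -0.54 (adjusted p = 0.0283). With honokiol MT-CYB (log2 fold change -1.15, standard error 0.33, adjusted p = 0.0115) and MT-ND3 (-0.75, adjusted p = 0.0497) were lower in U-937. MT-CYB was at 2415, 2411 and 1894 in THP-1 and at 968, 917 and 1337 in U-937 with honokiol, with no overlap. The 12 libraries share 1 fit, so the DMSO libraries bear on this p. Without the DMSO replicates 1, 8 mitochondrial genes were called with honokiol, all lower in U-937, among 60 members in all (56.1% of all genes). With DMSO, 54 members were then called (50.7% of all genes), among them MT-ND2 higher and 4 mitochondrial genes lower. MT-ND2 was at 0.45 with DMSO and 0.32 with honokiol with all libraries and was called in neither.

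The promoters of nuclear members are known for sites of NRF1, GABP and YY1. RefSeq windows of 300 bases around the start (GRCh38.p14) matched 70 of the 89 members by symbol, and the letters of each motif were searched on both strands. The NRF1 motif GCGCATGCG was in 15.7% of the 70 and in 2.1% of all 27305 windows, the GABP motif CCGGAAGT in 17.1% and 4.43%, and the YY1 motif AAGATGGCG in 12.9% and 1.85%. The ERR motif TCAAGGTCA was in 1 of the 70 (1.43% against 0.359%), and the Sp1 motif GGGCGG, which can lie within GC-rich stretches, in 58.6% against 44.6%. These shares of windows were not tested. ATP5MC2, lower in U-937 with DMSO and with honokiol, and NDUFA8, named above as higher in U-937 with honokiol, both hold the NRF1 letters. Their windows are shown for this contrast, chosen after their values were seen. The capitals mark the NRF1 letters on either strand. The windows are chr12:53676034-53676333 and chr9:122159730-122160029, both on the minus strand and written 5′ to 3′.
ATP5MC2: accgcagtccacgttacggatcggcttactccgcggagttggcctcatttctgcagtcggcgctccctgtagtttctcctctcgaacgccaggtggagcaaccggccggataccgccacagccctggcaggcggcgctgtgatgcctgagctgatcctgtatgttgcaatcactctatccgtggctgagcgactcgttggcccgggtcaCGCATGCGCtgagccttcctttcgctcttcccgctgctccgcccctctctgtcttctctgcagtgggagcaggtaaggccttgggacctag
NDUFA8: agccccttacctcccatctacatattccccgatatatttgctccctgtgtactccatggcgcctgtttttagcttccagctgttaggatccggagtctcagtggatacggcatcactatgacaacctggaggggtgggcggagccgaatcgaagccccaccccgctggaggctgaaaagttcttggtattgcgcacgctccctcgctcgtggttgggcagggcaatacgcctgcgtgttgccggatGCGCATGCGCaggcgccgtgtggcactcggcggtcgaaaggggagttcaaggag

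Genes that build and regulate the chain but are outside the pathway list were read from 8 lists of assembly factors, carriers, mitochondrial RNA and DNA maintenance factors and nuclear regulators. Of their 84 genes, edgeR called 0 of 82 tested with honokiol in THP-1 and 0 of 82 in U-937. At an unadjusted p under 0.05 there were 2 higher and 1 lower in THP-1 (6.84% and 6.22% of all genes), and 3 higher and 6 lower in U-937 (8.25% and 8.44%). Between the lines 27 were higher and 13 lower in U-937 of 83 tested with DMSO (24.4% and 28.5% of all genes), and 25 and 18 with honokiol (24.1% and 27.3%). ATPAF1, an assembly factor of the ATP synthase, was lower in U-937 with DMSO (log2 fold change -2.49, standard error 0.16, adjusted p = 2.55e-07), at 9.61 ± 1.20 FPKM in THP-1 and 1.78 ± 0.289 in U-937 (SD, n = 3). SLC25A4, a carrier of ADP and ATP, was lower too (log2 fold change -2.98, adjusted p = 2.62e-06), at 1.69 ± 0.376 and 0.220 ± 0.0361. Its mean in U-937 with DMSO lay below the level set by the filter on low values. The size of this fold therefore rests on values near the floor, and the gene was low in THP-1 with DMSO as well. NDUFAF6, an assembly factor of complex I, was higher by 1.54 with DMSO (adjusted p = 4.37e-05). Of the 16 genes of mitochondrial transcription and RNA and DNA maintenance, 6 were higher and 1 lower with DMSO (24.4% and 28.5% of all genes), among them PNPT1 (1.23, adjusted p = 0.000149), an RNA-degrading enzyme, and POLG (1.15, adjusted p = 1.16e-05), the mitochondrial DNA polymerase.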

How the data were processed

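Poly(A) mRNA of 12 libraries was sequenced by the authors. The submitters' processing notes list Bowtie 0.12.2, HISAT2 2.0 and StringTie 1.3.0, and a mouse build that goes against the human samples. The coordinates of all 110 members overlapped their GENCODE 29 gene on GRCh38, and those of 38 were identical to it. The FPKM values and the expected counts, estimates per gene that are whole numbers here, were used as deposited by the authors. A gene was tested where 3 or more libraries of a fit reached an FPKM of 0.5, by edgeR 4.0.16 (R 4.3.3, quasi-likelihood, TMM, Benjamini-Hochberg adjustment over all genes tested). Honokiol was compared with DMSO on the 6 libraries of a line, and the lines and the difference on all 12. The study's methods name a limit of 1 on the absolute log2 fold change, which was applied as an alternative. DESeq2 1.42.0 and limma 3.58.1 on log2(FPKM + 0.5) and log2(FPKM + 0.1) were alternatives, beside other scaling, filters, counts divided by 4, a replicate block and each library left out. The test was checked on simulated counts. These held no outlying library such as DMSO replicate 1, so the check does not cover that condition. The replicate numbers were not found to pair libraries, though pairing was not excluded. The members and lists were chosen with earlier results of these data known. Named were all mitochondrial members, all of complex II, the most expressed nuclear member of each complex, the paralog families, and up to 5 called nuclear members with the largest change in each direction and comparison, or, with fewer than 3 called, the 3 with the lowest unadjusted p under 0.05. Of the lists, at most 2 called genes a direction are named.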

Additional observations from a re-analysis of the deposited data

How the results depend on the processing

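With the fold limit of 1 on the log2 scale, 12 members were called between the lines with DMSO and 13 with honokiol. DESeq2 called 1 member with honokiol in THP-1 and 4 in U-937, where edgeR called 0. Leaving out each library in turn gave 37 to 51 members called between the lines with DMSO, 30 to 48 with honokiol and 0 in the other comparisons, and the remaining alternatives kept each count within 1.5 times. Leaving out DMSO replicate 1 of both lines gave 54 members between the lines with DMSO and 60 with honokiol, and 0 for the difference of the honokiol effect. For honokiol within a line that fit is the one without this line's DMSO replicate 1.

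The deviations of libraries with the same replicate number correlated at -0.16 to 0.11, and those with other numbers at -0.13 to 0.20. Between the DMSO groups of the lines, the same numbers gave 0.0950, 0.0282 and 0.113, and other numbers -0.13 to 0.0348. Pairing by number was not seen within a line, but deviations from means of 3 libraries cannot exclude it or a shared batch. With a replicate block 43 members were called between the lines with DMSO and 38 with honokiol, and 0 in the other comparisons. The sign turned under the block for COX7B at 0.11 for honokiol in THP-1, UQCRH at 0.0041 for honokiol in U-937 and MT-ND1 at -0.0541 and COX7A2 at -0.0105 for the difference of the honokiol effect.

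Of the values of single genes under the alternatives, 3174 kept their direction and their side of the threshold, 77 lost a call, 48 gained one and 191 turned their sign. Of those that turned, only MT-ATP8 between the lines with DMSO was called after the turn, at 0.55 (adjusted p = 0.0368) without DMSO replicate 1 of THP-1. Without DMSO replicate 1 of both lines, the values that turned were MT-ATP8 at 0.41 for the lines with DMSO and MT-ND1 at -0.17, MT-ND5 at -0.12, MT-ND6 at -0.17, SDHD at -0.0397, COX6A1 at 0.0238, NDUFA4L2 at 0.45 and ATP5MC2 at 0.13 for the difference of the honokiol effect. With limma on log2(FPKM + 0.5), the values that turned were SDHA at 0.0443, COX7A2L at 0.0032, COX7B at 0.15 and ATP5MC2 at 0.0487 for honokiol in THP-1, UQCRH at 0.0933, COX7A2L at 0.0352 and ATP5MC3 at 0.0228 for honokiol in U-937, MT-ATP8 at 0.0853 for the lines with DMSO and MT-ND1 at -0.0106, NDUFS5 at 0.0396, COX7A2L at 0.032 and NDUFA4L2 at 0.0722 for the difference of the honokiol effect. With limma on log2(FPKM + 0.1), the values that turned were SDHA at 0.0459, COX7A2L at 0.0039, COX7B at 0.17 and ATP5MC2 at 0.0492 for honokiol in THP-1, UQCRH at 0.0939, COX7A2L at 0.0374 and ATP5MC3 at 0.0234 for honokiol in U-937, MT-ATP8 at 0.0853 for the lines with DMSO and MT-ND1 at -0.0106, NDUFS5 at 0.0397 and COX7A2L at 0.0335 for the difference of the honokiol effect. Without chromosome MT, the values that turned were COX6A1 at -0.0077 for honokiol in U-937 and SDHD at -0.0007 for the difference of the honokiol effect. In one fit of the 10 libraries without the DMSO replicates 1, which was chosen after seeing the data and called 0 members in each line, the values that turned were MT-ND2 at 0.0096, MT-ND4 at 0.20, MT-ND4L at 0.0937, MT-ND6 at 0.0045, MT-CO1 at 0.20, MT-ATP8 at 0.18, ATP5F1B at -0.0944, UQCRH at -0.0753, COX4I1 at -0.0794, COX6A1 at -0.0484, COX6B1 at -0.20, COX7A2 at -0.0574, COX7A2L at 0.16, COX7B at 0.26, NDUFA4 at -0.0721 and ATP5MC3 at -0.11 for honokiol in THP-1 and MT-CO1 at 0.035, COX8A at -0.0584, SDHD at -0.0125, COX6A1 at -0.0246, COX7A2L at 0.0679 and ATP5MC2 at 0.0264 for honokiol in U-937. COX6A1 for honokiol in U-937, at 0.00 as tested, was at -0.012 with DESeq2, -0.012 with RLE size factors, -0.0144 with no filter and -0.013 in one fit of all 12 libraries.

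For honokiol in THP-1, leaving out each library in turn gave ATP5F1B from -0.10 to 0.20, ATP5MC2 from -0.11 to 0.11, ATP5MC3 from -0.12 to 0.0864, COX4I1 from -0.0876 to 0.15, COX6A1 from -0.0565 to 0.19, COX6B1 from -0.21 to 0.24, COX7A2 from -0.0656 to 0.35, COX7A2L from -0.21 to 0.15, COX7B from -0.35 to 0.25, MT-ATP8 from -0.78 to 0.17, MT-CO1 from -0.34 to 0.20, MT-ND2 from -0.85 to 0.0006, MT-ND4 from -0.71 to 0.19, MT-ND4L from -0.94 to 0.0851, NDUFA4 from -0.0802 to 0.29, SDHA from -0.11 to 0.13 and UQCRH from -0.0834 to 0.30. For honokiol in U-937, leaving out each library in turn gave ATP5MC2 from -0.32 to 0.0232, ATP5MC3 from -0.28 to 0.008, COX6A1 from -0.0272 to 0.0375, COX6B1 from -0.34 to 0.001, COX7A2L from -0.14 to 0.0655, COX8A from -0.0607 to 0.17, MT-CO1 from -0.80 to 0.0324, SDHD from -0.0146 to 0.24 and UQCRH from -0.17 to 0.15. For the lines with DMSO, leaving out each library in turn gave COX6B1 from -0.36 to 0.0729, COX8A from -0.24 to 0.10, MT-ATP6 from -0.33 to 0.57, MT-ATP8 from -0.42 to 0.55, MT-CO1 from -0.72 to 0.25, MT-CO2 from -0.49 to 0.59, MT-CO3 from -0.27 to 0.68, MT-ND1 from -1.18 to 0.27, MT-ND2 from -0.0343 to 1.03, MT-ND3 from -0.66 to 0.0723, MT-ND4 from -0.74 to 0.47, MT-ND4L from -0.85 to 0.47 and SDHA from -0.26 to 0.0057. For the lines with honokiol, leaving out each library in turn gave MT-CO3 from -0.0255 to 0.11. For the difference of the honokiol effect, leaving out each library in turn gave ATP5MC2 from -0.31 to 0.0374, ATP5MC3 from -0.29 to 0.0175, COX6A1 from -0.20 to 0.0419, COX6B1 from -0.42 to 0.0224, COX7A2 from -0.16 to 0.26, COX7A2L from -0.23 to 0.13, COX7B from -0.49 to 0.12, MT-ATP8 from -0.82 to 0.14, MT-CO1 from -0.76 to 0.21, MT-CO2 from -0.79 to 0.29, MT-CO3 from -0.65 to 0.30, MT-ND1 from -0.79 to 0.66, MT-ND2 from -0.71 to 0.35, MT-ND4 from -0.97 to 0.24, MT-ND4L from -0.95 to 0.37, MT-ND5 from -0.53 to 0.54, MT-ND6 from -0.41 to 0.35, NDUFA4L2 from -0.81 to 0.26, NDUFS5 from -0.14 to 0.0778, SDHD from -0.13 to 0.12 and UQCRH from -0.32 to 0.0557. The log2 ratio of the summed mitochondrial FPKM in THP-1 without DMSO replicate 1 was 0.0676. The causes were not tested.

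For honokiol, edgeR called 0 members with all libraries and 0 without DMSO replicate 1, while over all genes it called 6 and 1 for THP-1, and for U-937 13 and 6. What deeper or more libraries would show was not tested.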
